A study of Rattus norvegicus with 24 samples.

Results

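The genes described here are 9 members of the NRF2 antioxidant system, followed in rat lung after exposure to whole-cigarette smoke condensate (WCSC). They were chosen by gene symbol: 7 target genes (Nqo1, Hmox1, Gclc, Gclm, Txnrd1, Srxn1 and Slc7a11) and 2 regulators (Nfe2l2, which encodes NRF2, and Keap1), out of 16881 gene symbols in the count files. All 9 had counts and all 9 passed the filter on low counts, which left 11421 genes for testing. The 24 libraries came from rat lung with the genotype label WT and fell into 8 groups of 3: an unexposed control and WCSC at 5, 10 and 20 mg/mL, each at 6 days and at 12 days. The labels give no strain, age, sex or route of exposure. The labels do not say whether the 3 samples of a group came from separate animals, so the p-values measure the spread between samples, which may in part be technical.

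NRF2 is a transcription factor that is held at a low level by KEAP1, an adaptor that hands it to a ubiquitin ligase. Oxidants and electrophiles, both present in tobacco smoke, modify KEAP1, and NRF2 then accumulates and binds antioxidant response elements next to genes for glutathione synthesis, thioredoxin recycling, quinone reduction and heme breakdown. Much of this control acts on the NRF2 protein, which RNA counts do not measure.

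The response element has the core letters TGACNNNGC, and it was looked for in the promoter windows of RefSeq (rat build GRCr8), each reaching from 250 bases before to 50 bases after an annotated start. Of the 9 members, 8 had an entry in that table, Hmox1 being the other, and Txnrd1 had 2 windows, so 9 windows were read on both strands. The core was present in 3 of the 9 windows (Gclm, Nfe2l2 and 1 of the 2 Txnrd1 windows), against 12.1% of the 33469 windows of all genes. A variant with G as the fourth base, TGAGNNNGC, was looked for after the windows had been read, and was present 3 times in the Srxn1 window and in no other member window, against 17.2% of all windows. The 4 windows with a match to the core or to the variant are printed, since the core holds letters through which NRF2 is known to act; the Srxn1 window holds the variant only. Capitals mark the matches, and positions count from the annotated start as 0. In Gclm (chr2:213031885-213032184, plus strand) the match began at -172, in Txnrd1 (chr7:22755855-22756154, minus strand) at -78, in Nfe2l2 (chr3:81028950-81029249, minus strand) at 38, and in Srxn1 (chr3:161064562-161064861, plus strand) the matches to the variant began at -118, -17 and -5.
Gclm: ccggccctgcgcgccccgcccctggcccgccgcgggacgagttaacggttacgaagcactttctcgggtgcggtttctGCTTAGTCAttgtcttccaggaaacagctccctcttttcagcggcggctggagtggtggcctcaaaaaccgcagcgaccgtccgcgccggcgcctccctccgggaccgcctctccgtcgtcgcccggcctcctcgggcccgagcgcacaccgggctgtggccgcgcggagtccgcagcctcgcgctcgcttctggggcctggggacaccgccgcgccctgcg
Txnrd1: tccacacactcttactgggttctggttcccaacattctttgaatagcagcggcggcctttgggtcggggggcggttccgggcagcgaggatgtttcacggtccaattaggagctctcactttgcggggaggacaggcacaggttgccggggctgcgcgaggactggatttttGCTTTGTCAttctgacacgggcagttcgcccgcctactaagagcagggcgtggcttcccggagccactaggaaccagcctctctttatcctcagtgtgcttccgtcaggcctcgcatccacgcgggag
Nfe2l2: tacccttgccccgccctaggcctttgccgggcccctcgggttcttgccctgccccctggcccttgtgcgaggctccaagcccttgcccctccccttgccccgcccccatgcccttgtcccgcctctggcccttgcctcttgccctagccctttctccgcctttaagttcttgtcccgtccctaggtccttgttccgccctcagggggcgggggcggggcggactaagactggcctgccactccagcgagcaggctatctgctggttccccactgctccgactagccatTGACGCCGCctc
Srxn1: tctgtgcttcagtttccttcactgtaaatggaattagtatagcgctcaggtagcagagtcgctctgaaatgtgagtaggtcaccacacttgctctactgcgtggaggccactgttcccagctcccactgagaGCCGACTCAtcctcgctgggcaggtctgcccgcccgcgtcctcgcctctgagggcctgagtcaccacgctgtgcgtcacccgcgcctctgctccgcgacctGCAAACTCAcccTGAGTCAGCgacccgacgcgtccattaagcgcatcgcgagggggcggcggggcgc
A match is a description of letters in a window, and the count data do not measure binding at it. Letters outside the windows were not read, so a window without a match does not show that its gene lacks a response element.

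Total counts ranged from 4795667 to 11109713 per library, and values are given as CPM, the read counts scaled to a common library total with TMM factors. Markers of alveolar type II cells were high in all 24 libraries, with summed levels from 6945 to 28111 CPM, which fits the lung label. Replicate 2 of the 20 mg/mL group at day 12 stood apart: it had 2794 CPM of heart muscle markers against at most 192 CPM in each of the other libraries, 106 CPM of adipocyte markers, and the lowest type II sum. The 8 libraries with the fewest genes detected at equal depth (11454 to 11751, against 11938 to 12476 in the other 16) were 6 from day 6 and 2 from day 12. In these bulk samples, fewer cells of a type and less RNA per cell cannot be told apart.

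None of the 9 members rose or fell with WCSC at either day by edgeR's quasi-likelihood test after adjustment over all 11421 genes. This held for each of the 6 comparisons of a dose with the control of its day, which gave 0 of 9 members in each, and the background was also 0 of 11421 genes (0%) in each. Of the 54 member values in these comparisons, 1 had an unadjusted p under 0.05 in this fit of all 24 libraries, that of Hmox1 at 10 mg/mL and day 12. At 5, 10 and 20 mg/mL the share of all genes with such a p was 4.71%, 2.7% and 4.06% at day 6 and 1.25%, 2.09% and 3.69% at day 12. Without overlap, 4 of the 54 were higher and 2 lower than their controls. Of all genes, 4.19%, 2.99% and 4.08% at day 6 and 3.85%, 3.91% and 3.56% at day 12 were higher without overlap, and 4.13%, 3.23% and 4.67%, then 3.94%, 4.55% and 4.11%, were lower. At most 1 of the 9 members was higher and at most 1 lower without overlap in any comparison. DESeq2 and limma voom also gave 0 of the 54 past the adjusted threshold, the smallest adjusted p of any alternative being 0.0654, for Gclm at 10 mg/mL and day 6 with limma voom. The 3 doses of a day share the same 3 control libraries, so a high or low control library enters all 3 comparisons of its day.

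In the 8 other comparisons (the slope with dose and a difference of any shape among the doses of each day, the difference between days of each dose's effect, and the controls of the days), 0 of 9 members passed after adjustment, as did 0% of all genes outside the day 6 slope. With an unadjusted p under 0.05, Slc7a11 was found in the day 6 slope (4.86% of all genes) and the test for any dose at day 6 (4.27%). Hmox1 was found in the test for any dose at day 12 (2.44%), the day differences at 5 mg/mL (2.05%) and 10 mg/mL (1.86%), and the comparison of the controls (2.46%). No member was found in the day 12 slope (4.36%) or the day difference at 20 mg/mL (3.81%).

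**Figure D1:**
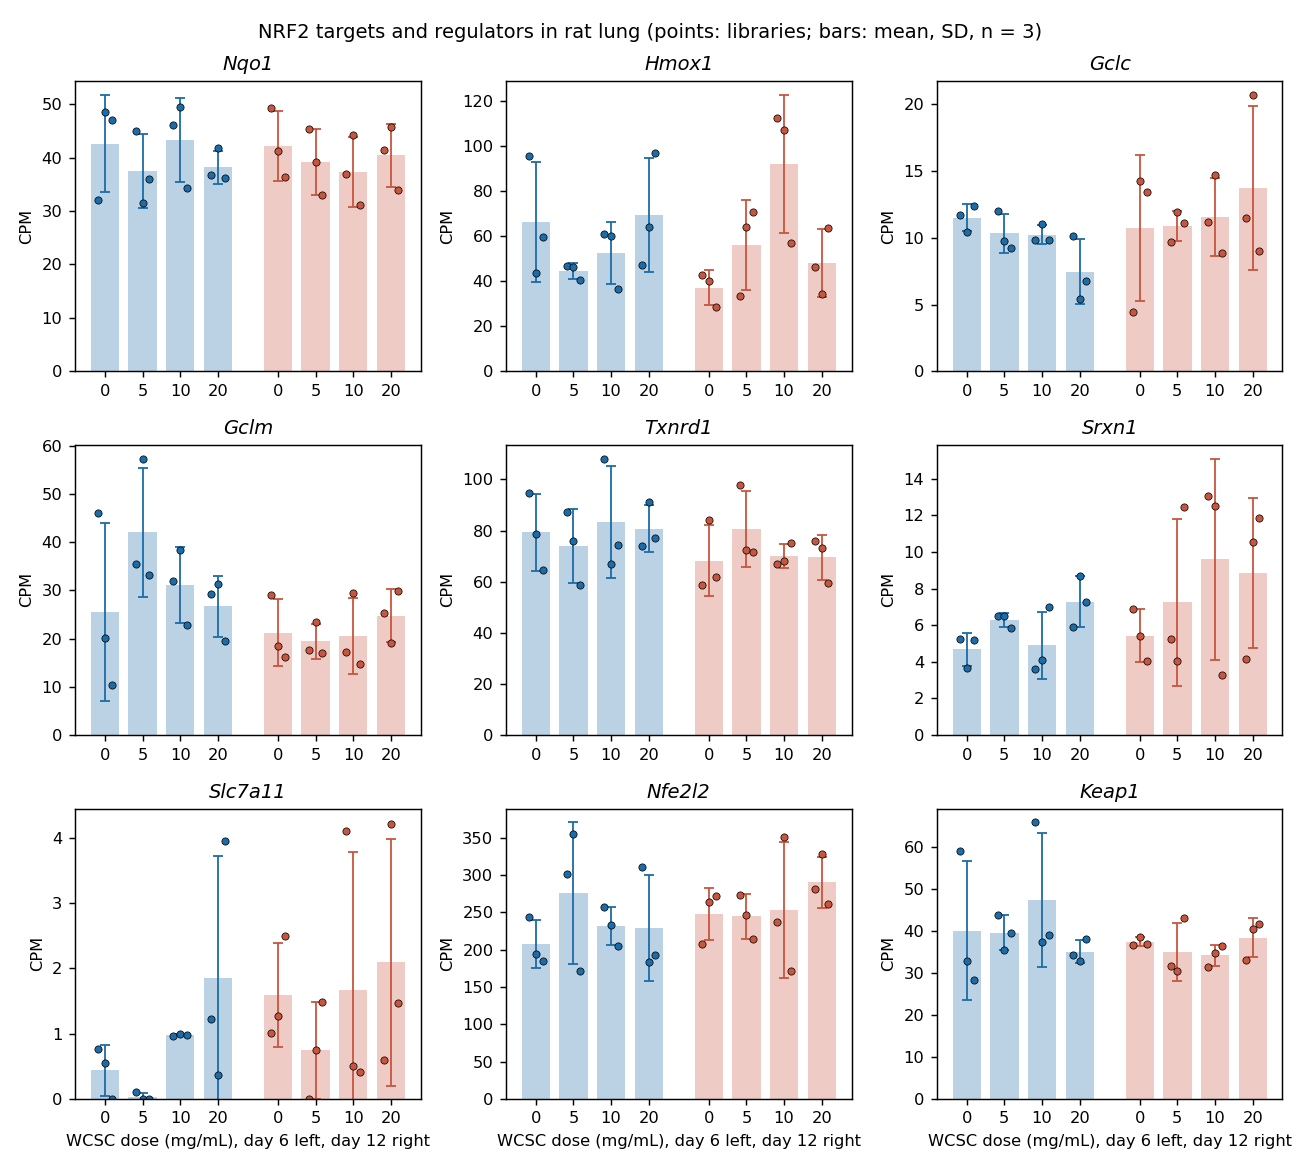
Level of each of the 9 genes in every library. The horizontal axis is the WCSC dose in mg/mL, with day 6 on the left in blue and day 12 on the right in red, and the vertical axis is CPM from 0. Points are libraries, and bars with whiskers are the mean and SD of 3. Hmox1 at 10 mg/mL and day 12 (56.8 to 112 CPM) lay above the day 12 controls (28.3 to 42.6 CPM), whereas the levels of most other groups overlapped.

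Hmox1, the inducible enzyme that breaks down heme, had the largest difference of the members relative to its error. In the day 12 controls its level was 42.6, 40.3 and 28.3 CPM. At 10 mg/mL it was 112, 107 and 56.8 CPM. All 3 exposed libraries lay above all 3 controls, although the third exposed library was closer to the controls than to the other 2. Among all genes, 3.91% were higher without overlap in that comparison. The fitted change was 2.49-fold (95% interval 1.51 to 4.09), or 1.31 ± 0.35 on the log2 scale (SE), with an unadjusted p of 0.000996 by edgeR, rank 3 of 11421. Its adjusted p was 1.00, so it did not pass, and across 17 alternatives the log2 change lay between 1.15 and 1.57 with adjusted p from 0.150 to 1.

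The other doses of day 12 did not extend this into an order with dose. At 5 mg/mL Hmox1 was 33.3, 63.9 and 70.8 CPM, and at 20 mg/mL it was 46.1, 34.1 and 63.8 CPM. Both groups overlapped the controls, with log2 changes of 0.60 ± 0.35 and 0.38 ± 0.35 (SE). In each group a single library lay within the control range. At 20 mg/mL this was replicate 2, the library with heart muscle markers. As single libraries were left out, the 20 mg/mL change ran from 0.12 to 0.57. The slope with dose at day 12, expressed as the log2 change over 20 mg/mL, was 0.34 ± 0.33 (SE). It ran from 0.06 to 0.54 as single libraries were left out. The test for a difference of any shape among the 4 groups gave an unadjusted p of 0.00570 and an adjusted p of 1.00 by edgeR.

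At day 6 Hmox1 was 95.7, 43.6 and 59.4 CPM in the controls and 46.7, 46.5 and 40.6 CPM at 5 mg/mL. It was 61.1, 60.0 and 36.6 CPM at 10 mg/mL and 47.3, 64.1 and 96.8 CPM at 20 mg/mL. The exposed groups all overlapped the controls, and 1 control library, replicate 1, was nearly as high as the highest exposed one. Log2 changes were -0.57, -0.33 and 0.07 from the lowest to the highest dose.

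The day 12 controls were themselves low in Hmox1. They lay below all 3 day 6 controls, where 4.19% of all genes were lower without overlap, with a log2 difference of -0.84 ± 0.35 (SE), an unadjusted p of 0.0233 and an adjusted p of 1.00 by edgeR. The effect at 10 mg/mL was 1.65 ± 0.48 (SE) higher on the log2 scale at day 12 than at day 6 (edgeR, unadjusted p = 0.00256, adjusted p = 1.00). At 5 mg/mL it was 1.17 ± 0.48 (SE) higher (edgeR, unadjusted p = 0.0249, adjusted p = 1.00). Both differences use these controls, and neither passed; 0% of all genes passed in either.

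Macrophages take up heme and are a known site of Hmox1 expression in lung, so their markers are given beside it. Of the 10 listed macrophage markers 9 were in the files, Marco had no counts, and Lyz2, which other lung cells can also express, made up 96.9% to 99.2% of their sum. Without Lyz2 the sum was 277 to 302 CPM at 10 mg/mL and day 12 against 283 to 335 CPM in the controls of that day. The macrophage markers were thus not higher in the exposed group. Genes detected at equal depth were 12024 to 12382 and 11751 to 12296 in the same groups. Across all 24 libraries, with group means removed, Hmox1 and the marker sum without Lyz2 had r = 0.56 and rho = 0.47 (permutation p = 0.00352 and 0.0294, adjusted over 45 relations 0.0528 and 0.180). The r was 0.69 within day 6, 0.51 within day 12 and 0.52 without the 2 libraries farthest from the median. It was 0.40 in the 16 libraries with more detected genes. Hmox1 also had r = -0.46 and rho = -0.44 with detected genes (permutation p = 0.038 and 0.057, adjusted over 45 relations 0.239 and 0.258). The part of macrophage number in the spread of Hmox1 between libraries was not tested further.

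**Figure D2:**
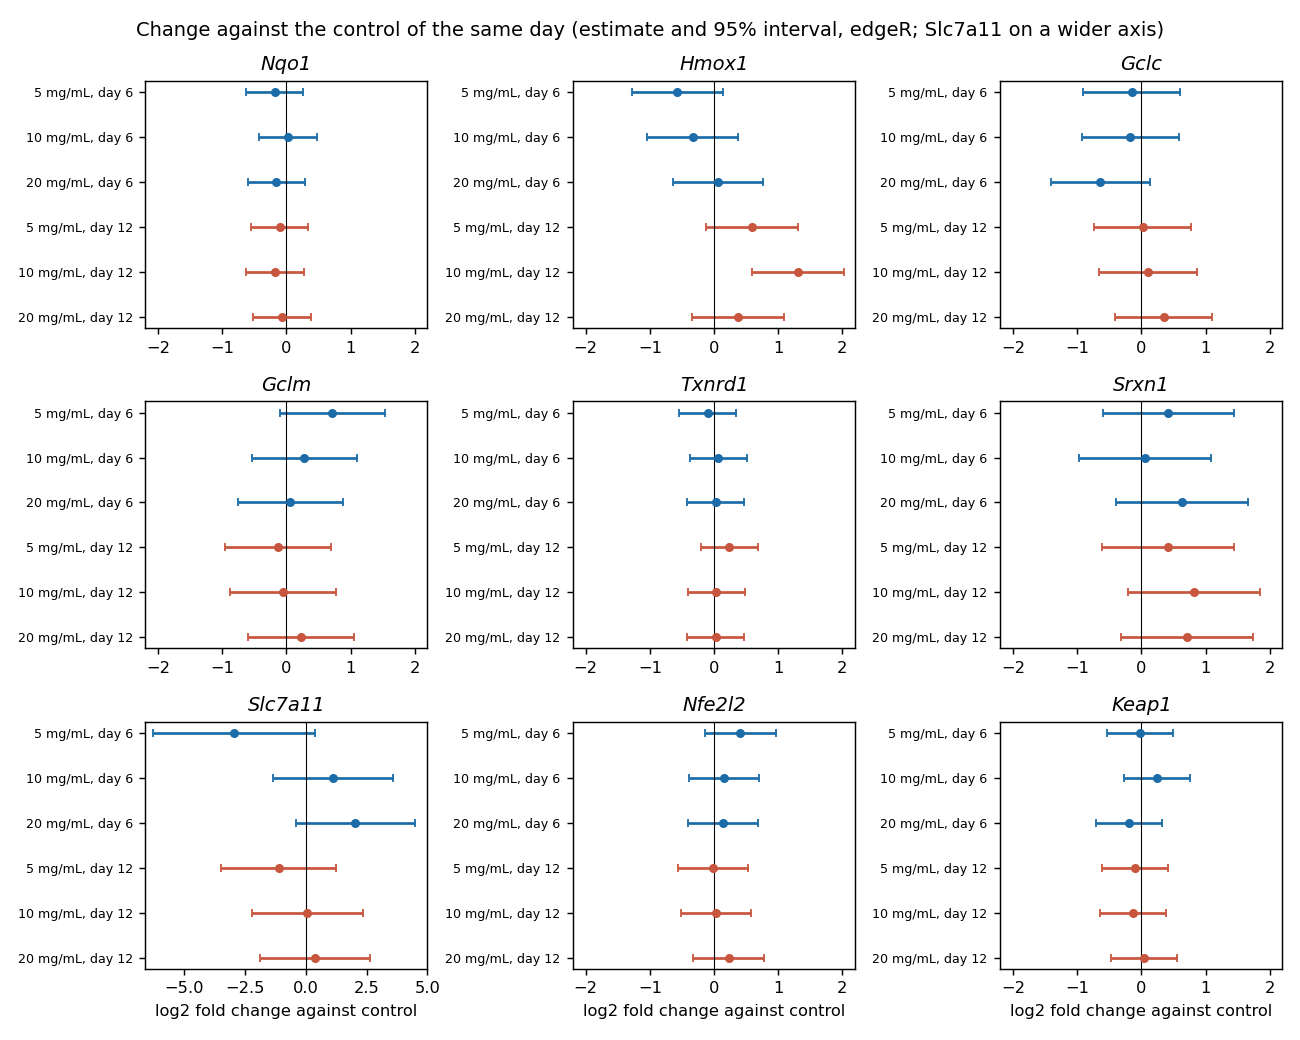
Log2 fold change of each gene against the control of the same day, for 5, 10 and 20 mg/mL at day 6 (blue) and day 12 (red). The 95% intervals were computed from the log2 change and F statistic of edgeR. The Slc7a11 axis is wider than the others. The interval of Hmox1 at 10 mg/mL and day 12, from 0.59 to 2.03, is the only one of 54 that does not include 0.

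The quinone reductase Nqo1 and the thioredoxin reductase Txnrd1, both widely used readouts of NRF2 activity, were the steadiest targets. Nqo1 lay between 31.1 and 49.5 CPM over all 24 libraries, a 1.59-fold range. Its log2 changes in the 6 comparisons ran from -0.18 to 0.02. The upper bounds of its 95% intervals reached at most 0.47, or 1.39-fold, so a doubling lay outside all 6. Txnrd1 lay between 58.7 and 108 CPM, a 1.84-fold range. Its log2 changes ran from -0.10 to 0.24, and its highest upper bound was 0.68, or 1.61-fold. In both genes every exposed group overlapped its controls.

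Gclc and Gclm encode the catalytic and the modifier subunit of glutamate-cysteine ligase, the first step of glutathione synthesis. Gclc was 11.7, 10.4 and 12.4 CPM in the day 6 controls and 10.2, 5.43 and 6.76 CPM at 20 mg/mL. The exposed libraries lay below all controls, but the highest exposed and the lowest control were close, and 4.67% of all genes were lower without overlap in that comparison. The log2 change was -0.64 ± 0.37 (SE), with an unadjusted p of 0.0988 and an adjusted p of 1.00 by edgeR. The summed markers of airway club and goblet cells, of which 5 of 6 were in the files, were 12623, 3114 and 8586 CPM in these exposed libraries and 9762, 13445 and 17691 CPM in the controls, so they overlapped. Across all 24 libraries, with group means removed, Gclc and this sum had r = 0.50 and rho = 0.59 (permutation p = 0.00912 and 0.00732, adjusted over 45 relations 0.0684 and 0.0824). The r was 0.85 within day 6, 0.40 within day 12 and 0.42 without the 2 farthest libraries. The part of airway cells in the Gclc difference was not tested. At 20 mg/mL and day 12 Gclc was 11.5, 20.7 and 9.03 CPM against 4.45, 14.3 and 13.5 CPM, with overlap. Its log2 change there, 0.35 ± 0.37 (SE), turned to -0.075 without replicate 2 of the exposed group, to -0.019 without replicate 1 of the controls and to -0.15 with limma voom. That exposed library held the heart muscle markers and also the highest club and goblet sum of all 24, 19410 CPM.

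Gclm had its largest change at 5 mg/mL and day 6, where it was 35.4, 57.3 and 33.3 CPM against 46.0, 20.2 and 10.4 CPM in the controls. The controls were spread widely and overlapped the exposed libraries. The log2 change was 0.72 ± 0.39 (SE), with an unadjusted p of 0.0829 and an adjusted p of 0.896 by edgeR. It ran from 0.34 to 1.45 as each of the 6 libraries was left out, with an unadjusted p from 0.00102 to 0.377 by edgeR. Gclm at 10 mg/mL and day 6 ran from -0.09 to 1.02 in the same way, with an unadjusted p from 0.0132 to 0.821 by edgeR. Under other settings the day 6 change ran from 0.58 to 1.29 at 5 mg/mL and from 0.18 to 1.00 at 10 mg/mL. Its size thus depended on the settings too, and it did not pass after adjustment under any of them. At day 12 the 3 log2 changes of Gclm lay between -0.13 and 0.23.

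Gclm moved with a property of the libraries. With group means removed, its level fell as more genes were detected at equal depth, with r = -0.74 and rho = -0.80 over 24 libraries (permutation p = 0.00086 and 0.0003, adjusted over 45 relations 0.0257 and 0.0135). The r was -0.70 within day 6, -0.87 within day 12, -0.72 without the 2 farthest libraries and -0.57 in the 16 libraries with more detected genes. It also rose with the sum of red blood cell markers, with r = 0.59 and rho = 0.70 (permutation p = 0.00114 and 0.00113, adjusted 0.0257 and 0.0254), the r being 0.67 within day 6, 0.36 within day 12 and 0.64 without the 2 farthest libraries. All permutation p-values take libraries of different groups as independent. At day 6 the replicate 3 libraries correlated with each other (0.21 to 0.59) and all had many detected genes (12180 to 12476). The permutation p-values of Gclm may thus be too small. The part of the red blood cell markers in the Gclm differences between groups was not tested. For detected genes, a fit with them as a covariate was made. In that fit the log2 changes of Gclm were 0.58, 0.18 and 0.19 at 5, 10 and 20 mg/mL and day 6, against 0.72, 0.28 and 0.06 without the covariate. At day 12 they were -0.057, 0.11 and 0.27 against -0.13, -0.05 and 0.23.

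**Figure D3:**
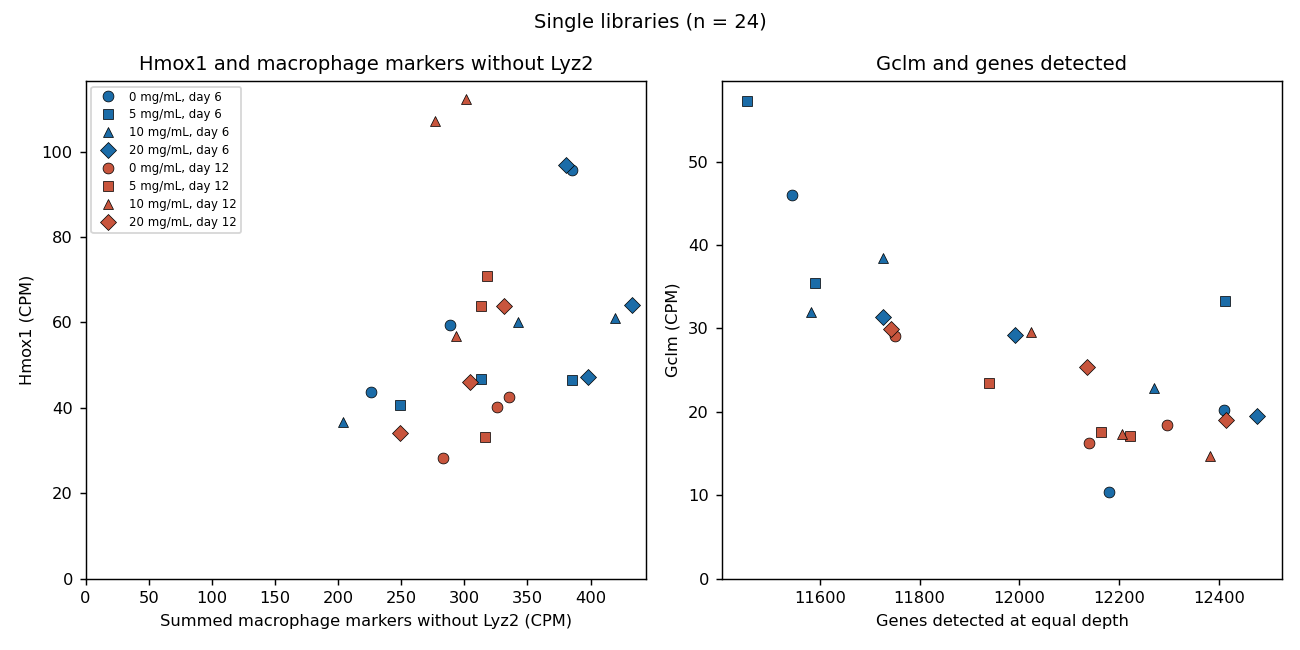
Single libraries, with day 6 in blue, day 12 in red and the dose as symbol. Left, Hmox1 in CPM against the summed CPM of macrophage markers without Lyz2; right, Gclm in CPM against the genes detected after all libraries were thinned to the same total. The 2 highest Hmox1 libraries, 112 and 107 CPM, have marker sums of 302 and 277 CPM, within the range of the day 12 controls or below it, and Gclm is highest where the fewest genes were detected.

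Srxn1 encodes sulfiredoxin, which restores overoxidised peroxiredoxins. It was 5.23, 3.66 and 5.21 CPM in the day 6 controls, 6.48, 6.53 and 5.87 CPM at 5 mg/mL and 5.89, 8.69 and 7.27 CPM at 20 mg/mL. Both exposed groups lay above all controls, where 4.19% and 4.08% of all genes did so. The 10 mg/mL group between them, at 3.59, 4.10 and 7.01 CPM, overlapped the controls. At day 12 the controls were 6.87, 5.42 and 4.02 CPM. The exposed groups were 5.23, 4.07 and 12.5 CPM at 5 mg/mL, 13.0, 12.5 and 3.27 CPM at 10 mg/mL, and 4.16, 10.5 and 11.8 CPM at 20 mg/mL. Each exposed group of day 12 held libraries at the control level beside libraries above 10 CPM, or near it. The 10.5 CPM library at 20 mg/mL was replicate 2, the library with heart muscle markers. All 6 log2 changes of Srxn1 were above 0, from 0.06 to 0.82, but each interval included 0 and each also included a doubling, and the smallest unadjusted p was 0.112. Srxn1 had 21 to 97 counts per library, which limits its precision.

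Slc7a11, the cystine carrier that feeds glutathione synthesis, was near the limit of detection. It had 0 to 31 counts per library and no count in 4 of 24 libraries. At day 6 the counts were 6, 4 and 0 in the controls, 1, 0 and 0 at 5 mg/mL, 8, 8 and 7 at 10 mg/mL, and 6, 3 and 31 at 20 mg/mL. The 10 mg/mL libraries, at 0.957, 0.994 and 0.982 CPM, lay just above the highest control at 0.765 CPM, where 2.99% of all genes were higher without overlap. The single library with 31 counts held most of the 20 mg/mL signal. The day 6 slope, as the log2 change over 20 mg/mL, was 3.24 ± 1.14 (SE) with an unadjusted p of 0.00958 and an adjusted p of 0.952 by edgeR, and it ran from 1.93, without that library (unadjusted p = 0.148), to 3.81 as single libraries were left out. Under other settings it ran from 2.73 with limma voom to 4.82 when the 8 libraries lowest in detected genes were left out. In that slope 0.00876% of all genes passed. A fitted value from so few counts depends on the counts added by the model. At day 12 the counts were 5, 7 and 18 in the controls, 0, 5 and 10 at 5 mg/mL, 29, 3 and 3 at 10 mg/mL and 3, 22 and 12 at 20 mg/mL, with overlap throughout. The library with 22 counts was replicate 2, the library with heart muscle markers. Without it the log2 change at 20 mg/mL and day 12 turned from 0.37 to -0.60. The day 12 controls, at 1.01 to 2.50 CPM, were above all day 6 controls, where 4.72% of all genes were higher without overlap, with a log2 difference of 1.83 ± 1.18 (SE).

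The regulators had small differences between groups. Nfe2l2 lay between 171 and 355 CPM in all 24 libraries. Its log2 changes ran from -0.02 to 0.41, and no interval from the fit of all libraries reached a doubling. Its largest change was at 5 mg/mL and day 6, at 301, 355 and 171 CPM against 244, 194 and 184 CPM, where the exposed libraries held both the highest and the lowest value. Keap1 lay between 28.4 and 65.9 CPM, with log2 changes from -0.19 to 0.24. At 10 mg/mL and day 12 Keap1 was 31.5, 34.9 and 36.4 CPM against 36.8, 38.6 and 36.9 CPM in the controls. The exposed libraries were all lower, as were 4.55% of all genes without overlap, but the log2 change was only -0.13 ± 0.25 (SE). In the fit of all 24 libraries, Nqo1, Txnrd1, Nfe2l2 and Keap1 were the 4 of the 9 members with all 6 intervals below a doubling. With 1 library left out, the log2 change reached 0.66 for Nfe2l2 at 5 mg/mL and day 6. For Keap1 at 10 mg/mL and day 6 it reached 0.63. Intervals of the fits with a library left out are not given, so the statement does not extend to them. For the other members a doubling was inside at least 1 interval of the fit of all libraries, so at this depth and spread its absence was not shown.

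Ordering the 8 groups by mean level within each gene gave 63 pairs of neighbouring groups. In 2 of them the gap was larger than the larger SD of the pair, for Gclc at day 6 (10 mg/mL over 20 mg/mL) and for Slc7a11 at day 6 (control over 5 mg/mL). Both of these pairs still overlapped in range. In 1 further pair, Slc7a11 in the day 12 controls over 10 mg/mL at day 6, the ranges were apart (1.01 to 2.50 against 0.957 to 0.994 CPM) although the gap was smaller than the larger SD. The other neighbours did not differ beyond their spread. Hmox1 was ordered from 92.1 CPM at 10 mg/mL and day 12 down to 37.1 CPM in the day 12 controls, and Gclm from 42.0 CPM at 5 mg/mL and day 6 to 19.4 CPM at 5 mg/mL and day 12.

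As a group, the members had median log2 changes of -0.10, 0.07 and 0.06 at 5, 10 and 20 mg/mL and day 6, and of -0.02, 0.04 and 0.23 at day 12. The medians of all genes tested lay between -0.0076 and 0.011. The members above 0 numbered 3, 7 and 6 of 9 at day 6, against 49.2%, 50.1% and 49.6% of all genes, and 4, 6 and 8 of 9 at day 12, against 49.8%, 51.1% and 51.3%. At 20 mg/mL and day 12 Nqo1 was the member below 0. Without replicate 2 of that group, the library with heart muscle markers, the member median was -0.000963, and with limma voom it was 0.0155. It was 0.13 without replicate 3 of that group and 0.12 without replicate 1 of the controls, so it depended on several single libraries and on the test used.

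No pair of members passed the test for varying together between libraries. With group means removed, 25 of the 36 pairs had r above 0, with a median r of 0.10, and 0 of 36 had an adjusted permutation p under 0.05. The pair with the smallest p was Gclc and Nfe2l2, with r = 0.57 and rho = 0.62 over 24 libraries (permutation p = 0.00221 and 0.00484, adjusted 0.0796 and 0.174). Its r was 0.62 within day 6, 0.65 within day 12 and 0.59 without the 2 farthest libraries. Gclc and Gclm, the 2 subunits of 1 enzyme, had r = -0.21.

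**Figure D4:**
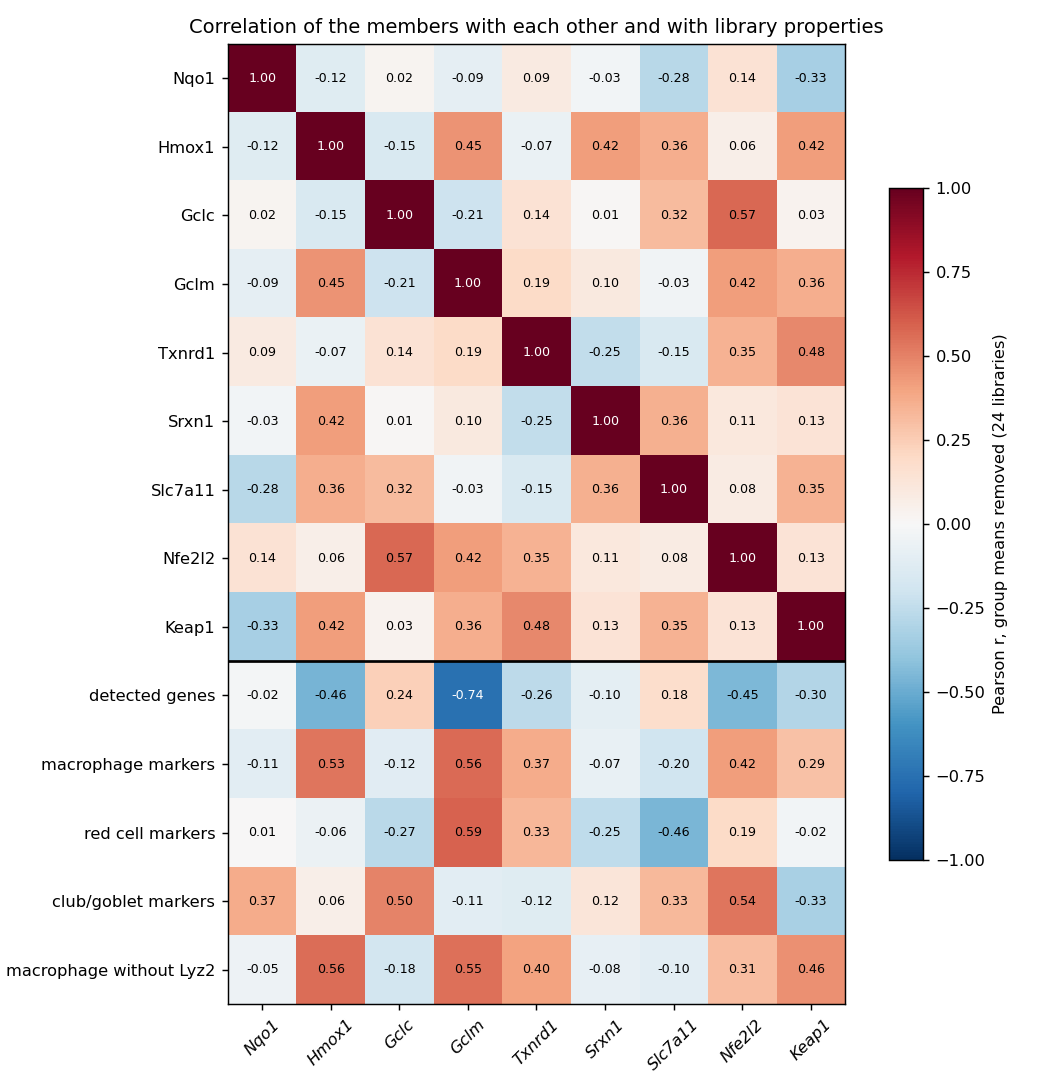
Pearson r over 24 libraries after removal of the group means, between pairs of the 9 genes (upper block) and between each gene and 5 library properties (lower block), red for positive and blue for negative. The strongest cell outside the diagonal is that of Gclm with detected genes, -0.74, and among the genes that of Gclc with Nfe2l2, 0.57.

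The genes whose level over the 24 libraries was most like a member's, by Pearson r of log2 CPM without removal of group means, were named for the members with a mean of at least 10 CPM. For Hmox1 they were Mrpl35 (r = 0.78, rho = 0.80), Muc1 (r = 0.63, rho = 0.62) and Slc26a4 (r = 0.63, rho = 0.61). For Gclm they were Snrnp27 (r = 0.83, rho = 0.87), Dcun1d1 (r = 0.82, rho = 0.76) and Fech (r = 0.82, rho = 0.82). For Nfe2l2 they were Pnrc2 (r = 0.87, rho = 0.88), Ift20 (r = 0.85, rho = 0.81) and Rpl27 (r = 0.84, rho = 0.82). Nqo1 was most like Rrp7a (r = 0.80, rho = 0.79), Txnrd1 most like Eri1 (r = 0.73, rho = 0.78), Gclc most like Slc35f5 (r = 0.81, rho = 0.57) and Keap1 most like Cbr4 (r = 0.75, rho = 0.51). All points share library depth and composition, and none of these genes is a member.

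The wider pathway was read from 4 lists with 71 genes, of which 64 were tested: other NRF2 targets, KEAP1-NRF2 machinery, other antioxidant enzymes, and heme and iron handling. Of these, 0 passed the adjusted threshold in any of the 6 comparisons by edgeR. At 20 mg/mL and day 6, where 4.06% of all genes had an unadjusted p under 0.05, 4 of the 27 other NRF2 targets tested did so, all of them lower, and the list's median log2 change was -0.01. At 20 mg/mL and day 12, 19 of the 27 were above 0, against 51.3% of all genes. The list median there was 0.11, against 0.011 for all genes. It was not computed without replicate 2 of that group, the library with heart muscle markers. Abcc3, a transporter that exports conjugates, had the smallest p of the 64: it was 10.5 ± 3.61 CPM against 23.3 ± 1.20 CPM (SD, n = 3) at 20 mg/mL and day 6, a log2 change of -1.15 ± 0.29 (SE) with an unadjusted p of 0.000689 and an adjusted p of 0.700 by edgeR. Gstp1, a glutathione transferase, was 175 ± 39.1 against 323 ± 83.8 CPM (SD, n = 3) there. Its log2 change was -0.88, with an unadjusted p of 0.0101 by edgeR, and Gstp1 did not pass after adjustment. Both genes lay below all controls, where 4.67% of all genes were lower without overlap. They were named as the 2 of their list with the smallest p.

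In the machinery list the genes with the smallest p were Maff, a small MAF partner of NRF2, at 26.5 to 46.5 CPM against 14.3 to 26.8 CPM, and Rbx1, a subunit of the ligase that KEAP1 serves, at 132 ± 33.8 against 79.7 ± 6.72 CPM (SD, n = 3), both at 5 mg/mL and day 6. Their log2 changes were 0.76 and 0.73, with an adjusted p of 0.896 each by edgeR. The antioxidant enzymes Prdx6 (log2 change 0.51 at 20 mg/mL, day 6) and Gpx4 (0.49 at 10 mg/mL, day 6) had unadjusted p of 0.0567 and 0.0795 in edgeR. In heme and iron handling, the hemoglobin-haptoglobin receptor Cd163 was 7.46 ± 5.16 against 3.26 ± 0.396 CPM (SD, n = 3) at 20 mg/mL and day 12, and haptoglobin, Hp, was 20.9 ± 11.5 against 10.5 ± 2.14 CPM (SD, n = 3) at 20 mg/mL and day 6. Both exposed groups overlapped their controls, and the medians of that list ran from -0.07 to 0.22 over the 6 comparisons. Cd163 had a log2 change of 1.19, with an unadjusted p of 0.0274 and an adjusted p of 0.998 by edgeR. With 1 library left out, its log2 change ran from 0.57 to 1.59. Its unadjusted p was then highest, at 0.284 by edgeR, without replicate 2 of the exposed group, the library with heart muscle markers.

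**Figure D5:**
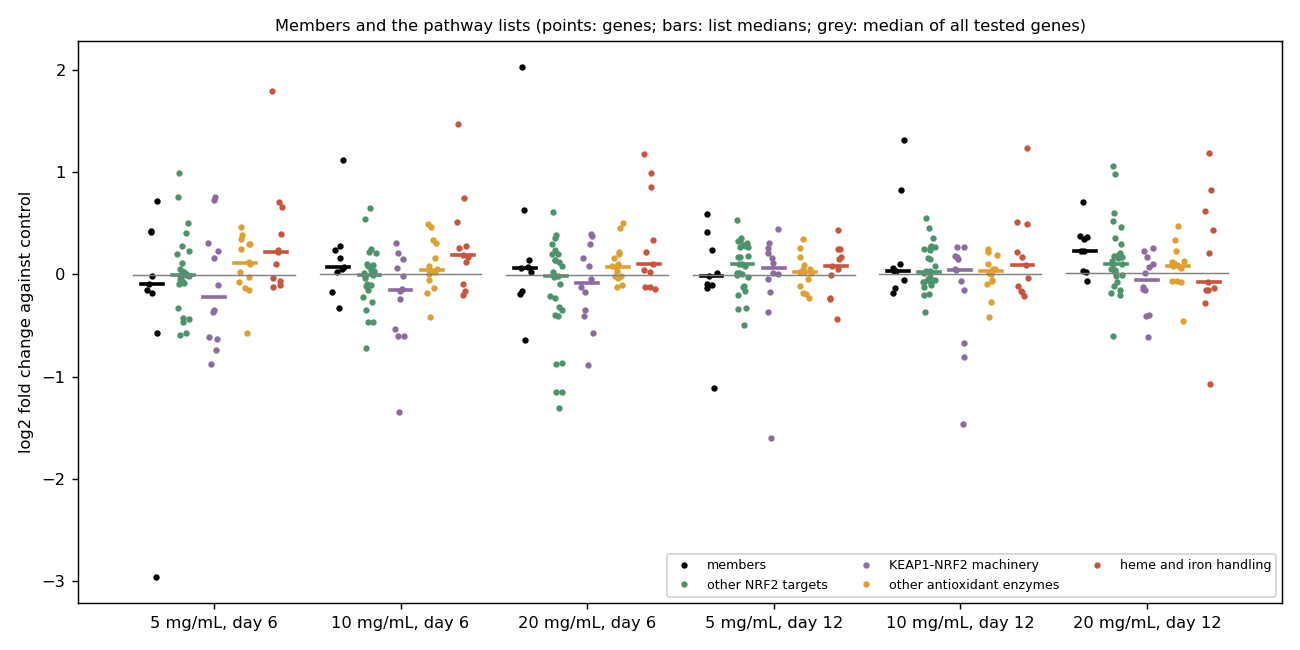
Log2 fold change against the control of the same day for the 9 members (black) and the tested genes of the 4 lists (colours), in 6 comparisons. Points are genes, coloured bars list medians and grey lines the median of all tested genes. All list medians lie between -0.22 and 0.23, and single genes scatter on both sides of 0.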

How the data were processed

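The authors deposited 1 file per sample with raw read counts per gene symbol. Trizol extraction and a Lexogen QuantSeq kit, which reads transcript ends, are given per the labels' protocols. Bowtie2, bedtools and build rn6 are named per the submitters' processing notes; for versions, annotation and strand setting, the notes used here say nothing. Of 17048 lines, 167 repeated a symbol already present; the line with the highest total was kept, a handling chosen after others had been tried so as to match an earlier processing of these data, and the rest (0.772% of counts) were left out. No 2 libraries of a group agreed within sampling noise.

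Genes were filtered with filterByExpr and tested with edgeR 4.0.16 in R 4.3.3 (TMM scaling, quasi-likelihood, 8 group means, 24 libraries, two-sided, Benjamini-Hochberg over 11421 genes, threshold 0.05). The SE and 95% intervals of log2 changes were computed from edgeR's log2 change and F statistic with a t quantile. They are approximate for genes with few counts, such as Slc7a11. DESeq2 1.42.0 and limma 3.58.1 were alternatives. The scripts were tested on simulated data. Correlations used log2 CPM (prior count 2) and 100000 permutations within groups. The 2 genes of each pathway list with the smallest p in any dose comparison, and the 3 genes nearest to a member, were named. The members and lists were chosen with earlier results of these data known. The variant motif, the marker correlations and the sum without Lyz2 were added after values were seen.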

Additional observations from a re-analysis of the deposited data

How the results depend on the processing

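Of the 72 log2 changes of members (6 dose comparisons and 2 slopes), none passed the adjusted threshold under any alternative. Signs turned in 43 of 785 values under other settings and in 77 of 540 values with 1 library left out; Hmox1 at 10 mg/mL and day 12 kept its sign in all 17, and all named list genes kept theirs.

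The number of genes past the adjusted threshold, 0 in each main comparison except 1 in the day 6 slope, was as follows. With DESeq2 it was 2 (5 mg/mL day 6), 3 (20 mg/mL day 6), 1 (5 mg/mL day 12), 1 (10 mg/mL day 12), 4 (20 mg/mL day 12), 9 (slope day 6), 11 (slope day 12), 6 (any dose day 6), 10 (any dose day 12), 2 (5 mg/mL day difference). With RLE size factors it was 1 (20 mg/mL day 6). With detected genes as a covariate it was 1 (20 mg/mL day 6), 1 (any dose day 6). With limma voom it was 5 (10 mg/mL day 6), 2 (20 mg/mL day 6), 2 (20 mg/mL day 12), 2 (slope day 6), 3 (slope day 12), 13 (any dose day 6), 1 (any dose day 12). With no filter beyond 1 read it was 1 (20 mg/mL day 6), 1 (any dose day 6), 3 (any dose day 12). With a fit of only the groups compared it was 2 (10 mg/mL day 12), 1 (20 mg/mL day 12), 0 (slope day 6), 1 (slope day 12), 2 (any dose day 12). With the replicate block it was 1 (20 mg/mL day 6), 1 (any dose day 6). With the 8 libraries with the fewest detected genes left out it was 3 (20 mg/mL day 6), 1 (10 mg/mL day 12), 4 (slope day 6), 1 (slope day 12), 2 (any dose day 6), 3 (any dose day 12).

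With 1 library left out it ran from 0 to 2 (5 mg/mL day 6), from 0 to 2 (slope day 6), from 0 to 3 (any dose day 6), from 0 to 15 (any dose day 12).

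Log2 changes that turned sign were these. With detected genes as a covariate: Gclm 10 mg/mL day 12 0.11, Slc7a11 10 mg/mL day 12 -0.0556, Gclm slope day 6 0.0169. With limma voom: Txnrd1 5 mg/mL day 6 0.0265, Keap1 5 mg/mL day 6 0.28, Nqo1 10 mg/mL day 6 -0.0102, Hmox1 10 mg/mL day 6 0.11, Keap1 20 mg/mL day 6 0.0822, Nqo1 5 mg/mL day 12 0.0187, Gclc 5 mg/mL day 12 -0.23, Gclm 5 mg/mL day 12 0.0823, Gclc 10 mg/mL day 12 -0.13, Gclm 10 mg/mL day 12 0.15, Slc7a11 10 mg/mL day 12 -0.68, Nfe2l2 10 mg/mL day 12 -0.0647, Nqo1 20 mg/mL day 12 0.00258, Gclc 20 mg/mL day 12 -0.15, Slc7a11 20 mg/mL day 12 -0.65, Keap1 20 mg/mL day 12 -0.00876, Gclm slope day 6 0.36, Keap1 slope day 6 0.0322, Gclc slope day 12 -0.0935. With the replicate block: Keap1 5 mg/mL day 6 0.0332, Nfe2l2 10 mg/mL day 12 -0.0131. With upper-quartile scaling: Txnrd1 20 mg/mL day 12 -9.23e-05. With the 8 libraries with the fewest detected genes left out: Nfe2l2 5 mg/mL day 6 -0.15, Keap1 5 mg/mL day 6 0.36, Nqo1 10 mg/mL day 6 -0.48, Keap1 20 mg/mL day 6 0.25, Nqo1 5 mg/mL day 12 0.0148, Gclc 5 mg/mL day 12 -0.35, Gclm 5 mg/mL day 12 0.16, Gclc 10 mg/mL day 12 -0.26, Gclm 10 mg/mL day 12 0.24, Txnrd1 10 mg/mL day 12 -0.0542, Slc7a11 10 mg/mL day 12 -0.17, Nfe2l2 10 mg/mL day 12 -0.0801, Nqo1 20 mg/mL day 12 0.17, Keap1 20 mg/mL day 12 -0.0375, Gclm slope day 6 0.37, Keap1 slope day 6 0.17, Nqo1 slope day 12 0.17, Keap1 slope day 12 -0.0167.

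With 1 library left out, changes that turned sign ran from -0.23 to 0.0503 (Txnrd1 5 mg/mL day 6), from -0.21 to 0.37 (Keap1 5 mg/mL day 6), from -0.14 to 0.17 (Nqo1 10 mg/mL day 6), from -0.56 to 0.0321 (Hmox1 10 mg/mL day 6), from -0.0908 to 1.02 (Gclm 10 mg/mL day 6), from -0.17 to 0.22 (Txnrd1 10 mg/mL day 6), from -0.29 to 0.24 (Srxn1 10 mg/mL day 6), from -0.069 to 0.63 (Keap1 10 mg/mL day 6), from -0.25 to 0.43 (Hmox1 20 mg/mL day 6), from -0.31 to 0.80 (Gclm 20 mg/mL day 6), from -0.10 to 0.17 (Txnrd1 20 mg/mL day 6), from -0.14 to 0.28 (Nfe2l2 20 mg/mL day 6), from -0.39 to 0.20 (Keap1 20 mg/mL day 6), from -0.23 to 0.0182 (Nqo1 5 mg/mL day 12), from -0.35 to 0.27 (Gclc 5 mg/mL day 12), from -0.29 to 0.16 (Gclm 5 mg/mL day 12), from -0.22 to 0.70 (Srxn1 5 mg/mL day 12), from -0.13 to 0.0704 (Nfe2l2 5 mg/mL day 12), from -0.26 to 0.35 (Gclc 10 mg/mL day 12), from -0.40 to 0.24 (Gclm 10 mg/mL day 12), from -0.0572 to 0.22 (Txnrd1 10 mg/mL day 12), from -1.79 to 0.55 (Slc7a11 10 mg/mL day 12), from -0.28 to 0.25 (Nfe2l2 10 mg/mL day 12), from -0.16 to 0.058 (Nqo1 20 mg/mL day 12), from -0.075 to 0.60 (Gclc 20 mg/mL day 12), from -0.0715 to 0.20 (Txnrd1 20 mg/mL day 12), from -0.60 to 0.86 (Slc7a11 20 mg/mL day 12), from -0.0275 to 0.13 (Keap1 20 mg/mL day 12), from -0.0967 to 0.52 (Hmox1 slope day 6), from -0.45 to 0.44 (Gclm slope day 6), from -0.0355 to 0.19 (Txnrd1 slope day 6), from -0.27 to 0.16 (Nfe2l2 slope day 6), from -0.32 to 0.15 (Keap1 slope day 6), from -0.15 to 0.0623 (Nqo1 slope day 12), from -0.0714 to 0.60 (Gclc slope day 12), from -0.13 to 0.0903 (Txnrd1 slope day 12), from -0.23 to 1.21 (Slc7a11 slope day 12), from -0.0107 to 0.15 (Keap1 slope day 12).

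The member median moved by more than the spread between replicates to 0.16 at 20 mg/mL day 6 with detected genes as a covariate, to 0.41 at 20 mg/mL day 6 with the 8 libraries with the fewest detected genes left out, to 0.24 at 20 mg/mL day 6 with limma voom, to 0.0155 at 20 mg/mL day 12 with limma voom, and with 1 library left out it ran from -0.0797 to 0.27 at 20 mg/mL day 6, from -0.0283 to 0.0551 at 5 mg/mL day 12, from -0.000963 to 0.25 at 20 mg/mL day 12.

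The replicate numbers were not taken to pair the samples, since not every pair of same-numbered libraries had a correlation of deviations over 0.1: of 36 pairs 14 did, 10 of 18 at day 6 and 4 of 18 at day 12. At day 6 these were 6 of 6 pairs for replicate 3 (0.21 to 0.59), 4 of 6 for replicate 1 (-0.022 to 0.42) and 0 of 6 for replicate 2 (-0.19 to 0.03). The libraries that correlated best with their own number were 8 of 12 at day 6 and 5 of 12 at day 12. The rule of over 0.1 in every pair thus does not show that the day 6 libraries were unpaired. The 4 replicate 3 libraries of day 6 had 12180 to 12476 detected genes. The effect of the replicate block on counts of calls is given above. The main fit has no term for the replicate number, and whether same-numbered libraries of day 6 shared a batch was not tested. The cause of the turns in sign was not tested. Low counts limit Slc7a11 and Srxn1.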
